A study of Mus musculus with 20 samples.

Results

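The genes described here are 10 of the 46078 genes in a table of RNA-seq counts from mouse liver, the cytosolic sulfotransferase genes Sult1e1, Sult1a1, Sult1b1, Sult1c2, Sult1d1, Sult2a8 and Sult5a1, the PAPS synthase genes Papss1 and Papss2, and the sulfate transporter gene Slc26a1. They were chosen by name, with values of these livers in view, because sulfate is made from cysteine and Sult1e1 was much higher where cysteine could be neither eaten nor made. All 10 passed the filter on low counts. The study asked how the liver answers the loss of cysteine in male mice that lack cystathionine γ-lyase (Cse, gene symbol Cth), the enzyme that releases cysteine in the last step of its synthesis from methionine. The Cse-/- mice were whole-body knockouts on a mixed 129/C57BL/6 background, and their controls, co-housed outside the calorie-restricted phase, are titled WT in the sample labels and heterozygous (Cse+/-) in the study's list of mice, so they are called Cse+/- here.

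Animals at least 9 weeks old ate an amino-acid-defined diet at restricted calories and were moved for 2 days to a test diet that was complete (control), lacked cysteine (no-Cys) or lacked the essential amino acid tryptophan (no-Trp). One group also received l-buthionine sulfoximine (BSO), which blocks γ-glutamyl cysteine synthase and thereby glutathione synthesis. There were 2 Cse+/- livers on control diet, 3 Cse+/- on no-Trp, 4 Cse+/- on no-Cys, 3 Cse-/- on no-Trp, 4 Cse-/- on no-Trp with BSO and 4 Cse-/- on no-Cys, each labelled as a biological replicate. Cse-/- mice on control diet were not analysed here, so no genotype difference without a missing amino acid can be given.

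Sulfotransferases move a sulfuryl group from 3′-phosphoadenosine 5′-phosphosulfate (PAPS) to hormones, bile acids, drugs and phenols, which makes them more water soluble and, for many hormones, inactive. PAPS is made in the cytosol from ATP and inorganic sulfate by the bifunctional PAPS synthases, and in the liver sulfate comes from the oxidation of cysteine or enters from blood through anion exchangers such as Slc26a1. The liver is the main site of this conjugation.

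Between 11785740 and 57986121 counts fell on genes per liver, and values are given as CPM, the count scaled to library size after TMM adjustment, at which 3 counts correspond to 0.0523 to 0.27 CPM. Cth was at 88.4 to 332 CPM in the 9 Cse+/- livers and at 6.37 to 14.4 CPM in the 11 Cse-/- livers, so each liver matched its genotype label. The 6 hepatocyte markers were all detected, with Alb at 25507 to 87978 CPM. Their summed level was 46323 to 74229 CPM in Cse-/- no-Cys livers, 69427 to 85975 in Cse-/- no-Trp livers with BSO, 74713 to 81072 in Cse-/- no-Trp, 85027 to 94772 in Cse+/- no-Trp, 92685 to 114836 in Cse+/- no-Cys and 119928 to 120164 in Cse+/- control livers. The summed level of 5 cholangiocyte markers was also lower in Cse-/- no-Cys livers (16.4 to 28.6 CPM) than in Cse+/- no-Cys livers (45.9 to 57.9 CPM), as was that of 5 blood and lymphoid markers (50 to 80.5 against 135 to 327 CPM). In bulk tissue, fewer cells of a type and less RNA per cell cannot be told apart, and the part of these markers in the results below was not tested. Single livers stood apart for several of the genes, mouse av08 among Cse-/- no-Cys livers, mouse av01 among Cse+/- no-Cys livers and mouse av15 among Cse-/- no-Trp livers (named by their column in the table), and values without them are given beside the results they move most.

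Per length of exon, the order of the levels over the 20 livers was led by Sult1a1, the phenol sulfotransferase, at 285 ± 48.1 CPM per kb (mean ± SD, range 175 to 353). Sult2a8, which acts on bile acids, followed at 185 ± 66.1 (93.7 to 319), and Sult1d1, which acts on catecholamines and other phenols, at 93.2 ± 19.8 (55.5 to 119). In Cse+/- no-Cys livers the mean of Sult2a8 was above that of Sult1a1, at 255 against 218 CPM per kb. Papss2 was at 48.4 ± 12 CPM per kb, Slc26a1 at 33 ± 6.2 and Sult1b1, which acts on thyroid hormones and phenols, at 10 ± 2.95. Each of these neighbours overlapped the next in range except Slc26a1 (lowest 20.1) and Sult1b1 (highest 14.4). Sult1e1 (3.15 ± 6.19), Papss1 (3.12 ± 0.43), Sult5a1 (2.92 ± 2.24) and Sult1c2 (2.09 ± 0.696) formed the low end of the order and overlapped each other. Sult1a1, Sult2a8 and Sult1d1 made up a median of 51.3%, 28.1% and 16.9% of the summed level per kb of the 7 sulfotransferase genes, whereas the share of Sult1e1 ran from 0.0196% to 4.05%. The PAPS synthase that dominated at the level of RNA was Papss2, above Papss1 in every liver.

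**Figure D1:**
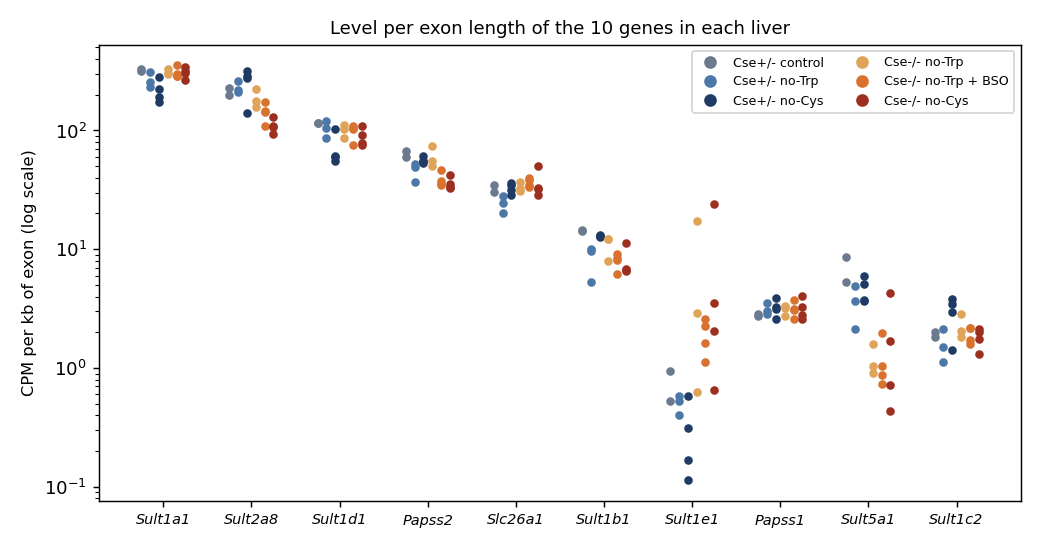
Level of the 10 genes in CPM per kb of exon (y axis, log scale), 1 point per liver, coloured by group and ordered by their mean over 20 livers. Sult1a1 leads at a mean of 285 CPM per kb, and Sult1e1 spreads farthest, from 0.114 to 24.1 CPM per kb.

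Sult1e1, the estrogen sulfotransferase, also varied most between animals, 211-fold from the lowest to the highest liver, against 1.56-fold for Papss1, 2.02-fold for Sult1a1 and 19.9-fold for Sult5a1. It lies beside Sult1d1 and Sult1b1 on the minus strand of chromosome 5 (GRCm38), Sult1e1 at chr5:87575969-87591594, Sult1d1 at chr5:87554645-87569027 and Sult1b1 at chr5:87513339-87538195. The 250 bases before the RefSeq start of each of the 3 neighbours are shown because the genes lie side by side (RefSeq, GRCm38.p6, minus strand, 5′ to 3′, at chr5:87591612-87591861, chr5:87569007-87569256 and chr5:87538196-87538445; for Sult1b1, 1 of its 2 listed starts):
Sult1e1: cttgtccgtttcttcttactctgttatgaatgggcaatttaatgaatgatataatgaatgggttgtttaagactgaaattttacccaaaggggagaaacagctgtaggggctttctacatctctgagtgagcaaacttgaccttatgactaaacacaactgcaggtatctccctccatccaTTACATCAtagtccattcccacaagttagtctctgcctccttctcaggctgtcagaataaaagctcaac
Sult1d1: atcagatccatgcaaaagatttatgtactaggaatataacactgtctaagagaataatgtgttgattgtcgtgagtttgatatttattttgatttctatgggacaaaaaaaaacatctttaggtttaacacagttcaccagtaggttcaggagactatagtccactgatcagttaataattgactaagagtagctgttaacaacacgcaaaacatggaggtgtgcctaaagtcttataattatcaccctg
Sult1b1: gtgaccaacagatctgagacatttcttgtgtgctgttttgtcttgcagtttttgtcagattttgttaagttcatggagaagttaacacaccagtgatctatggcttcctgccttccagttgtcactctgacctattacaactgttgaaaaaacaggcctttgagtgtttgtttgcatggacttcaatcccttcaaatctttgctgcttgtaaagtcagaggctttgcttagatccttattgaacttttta

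The capitals mark a match to TGATGNAA, the core of the element bound by ATF4 (a transcription factor of the amino acid response), on the other strand and 69 bases before the Sult1e1 start. Of 32851 RefSeq promoter windows of this length, 3.45% hold such a match on either strand. The core of the antioxidant response element, TGACNNNGC, searched on both strands and present in 10.2% of the windows, was found in 1 of the Slc26a1 windows, as TGACTCAGC 61 bases before the start. Matches to either motif were found in no other window of the 10 genes, and these letters are a description of sequence, not evidence of binding.

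In Cse-/- no-Cys livers Sult1e1 was at 0.807, 2.57, 4.43 and 29.9 CPM, and in Cse+/- no-Cys livers at 0.142, 0.212, 0.389 and 0.721 CPM. The groups did not overlap, although the highest Cse-/- liver (mouse av08, 405 counts) lay far above the others and the lowest Cse+/- liver had only 2 counts, under the limit of 3. The difference was 4.72 on the log2 scale (SE 1.16) and 2.89 (SE 0.982) without mouse av08. These livers chose the gene, so the values are a description. Adipose tissue is a further site of Sult1e1 expression. The 6 adipocyte markers summed to 5.61 CPM in mouse av08 and 17.8 CPM in mouse av15, against 3.97 to 45.4 CPM over all livers, with Adipoq, Plin1 and Lep at 0 in both and Cidec, at 17.8 CPM in mouse av15, higher there than in any other liver. The part of these markers in the Sult1e1 values was not tested.

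Sult1e1 was not confined to the Cse-/- livers without cysteine. In the Cse-/- no-Trp livers, whose diet held cysteine, it was at 0.777, 3.6 and 21.6 CPM, the highest value again from a single animal, mouse av15. With BSO added, the 4 livers lay at 1.41, 2.02, 2.81 and 3.23 CPM, closer together than either of the other Cse-/- groups. The Cse+/- livers were at 0.497, 0.654 and 0.725 CPM on no-Trp and at 0.654 and 1.18 CPM on control diet. Of the 11 Cse-/- livers, 2 (at 0.777 and 0.807 CPM) fell within the Cse+/- range of 0.142 to 1.18 CPM.

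The comparison of genotypes on the no-Trp diet holds no no-Cys liver, although the genes were chosen with earlier results of these data known. There Sult1e1 was 3.69 higher in Cse-/- livers on the log2 scale (SE 1.11) with no overlap between groups. It missed the threshold in edgeR's quasi-likelihood test (adjusted p = 0.0766, and 0.194 when the 2 groups were fitted alone). DESeq2 placed it past the threshold (log2 3.79, adjusted p = 0.0196). Without mouse av15 the difference was 1.74 (adjusted p = 0.522), and without mouse av14, the lowest of the group, it was 4.23 (adjusted p = 0.0329). The call thus changed when mouse av14 was left out, with the tool and with the filter on low counts (0.00249 with none), and the adjusted p ran from 0.00249 to 0.522 over the alternatives run. With BSO against Cse+/- no-Trp, Sult1e1 was 1.80 higher (SE 1.1, adjusted p = 0.301, and 0.00822 when the 2 groups were fitted alone, with no overlap), and against Cse-/- no-Trp without BSO it was 1.89 lower (SE 0.88, adjusted p = 0.364). The latter value was 0.042 without mouse av15.

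Between Cse-/- no-Cys and Cse-/- no-Trp livers the Sult1e1 difference was 0.14 (SE 0.839), and its direction depended on 1 animal, at -1.70 without mouse av08 and 2.08 without mouse av15. Among Cse+/- livers, the no-Cys diet gave 0.89 lower levels than no-Trp (log2 -0.89, SE 1.53) and the groups overlapped.

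**Figure D2:**
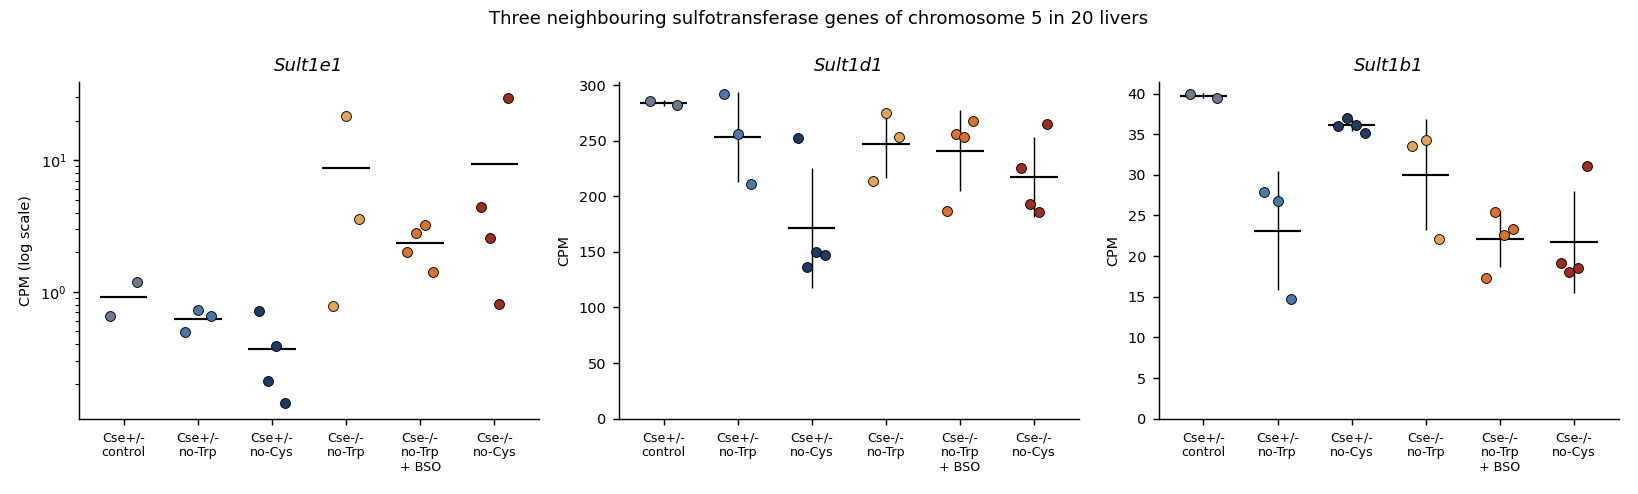
CPM of Sult1e1 (log axis), Sult1d1 and Sult1b1 (linear axes from 0) in each liver of the 6 groups; points are livers, horizontal lines group means and, on the linear axes, vertical lines 1 SD. The Sult1e1 means of Cse-/- no-Trp and no-Cys livers are carried by 1 animal each, at 21.6 and 29.9 CPM, while Sult1b1 is at 18.1 to 31.1 CPM in Cse-/- no-Cys and 35.2 to 37 CPM in Cse+/- no-Cys livers.

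Sult1b1 differed from Sult1e1 in direction on no-Cys. It was at 35.2 to 37 CPM in the Cse+/- no-Cys livers and at 18.1, 18.5, 19.1 and 31.1 CPM in the Cse-/- no-Cys livers, lower without overlap (log2 -0.73, SE 0.197, and -0.96 without mouse av08, the highest). On the no-Trp diets it was at 22.1, 33.6 and 34.3 CPM in Cse-/- livers, 17.3 to 25.4 with BSO and 14.7, 26.8 and 27.9 in Cse+/- livers, with overlap throughout and no call by edgeR (adjusted p = 0.389 for genotype, 0.37 for BSO). The 2 Cse+/- control livers, at 39.5 and 40 CPM, lay above all other livers, and against them Sult1b1 was 0.78 lower on the log2 scale in Cse+/- no-Trp livers (SE 0.246, edgeR adjusted p = 0.315).

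Sult1d1 was lowest in the Cse+/- no-Cys livers, at 136, 147 and 150 CPM in 3 animals and 252 CPM in mouse av01, and lay at 186 to 292 CPM in all others. Sult1a1 likewise had its lowest mean there, at 263, 290, 339 and 421 CPM in the Cse+/- no-Cys livers, 397 to 516 CPM in Cse-/- no-Cys livers and 474 and 494 CPM in control livers. Between the no-Cys genotypes the log2 differences were 0.49 (SE 0.13) for Sult1a1 and 0.34 (SE 0.174) for Sult1d1, and without mouse av01 they were 0.63 for Sult1a1 and 0.59 (SE 0.145) for Sult1d1. Across the 20 livers the log2 CPM of the 2 genes had a Pearson correlation of 0.81, given as a description over livers that share their diets and genotypes. Neither gene was called in the 4 comparisons without no-Cys livers (edgeR adjusted p = 0.362 to 0.975 for Sult1a1 and 0.843 to 0.962 for Sult1d1), where Sult1a1 lay between 351 and 532 CPM.

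Sult2a8, second of the sulfotransferases in mean level per kb over all livers, was at 308, 348, 360 and 423 CPM in Cse-/- no-Cys livers and at 908, 936 and 1048 CPM in 3 of the Cse+/- no-Cys livers. The fourth, mouse av01, was at 459 CPM, just above the Cse-/- animals, so the groups did not overlap (log2 -1.22, SE 0.196, and -1.42 without mouse av01). The means of the no-Trp groups lay between those of the no-Cys groups, with livers at 521, 580 and 728 CPM in Cse-/-, 354, 467, 481 and 569 CPM in Cse-/- with BSO and 692, 716 and 858 CPM in Cse+/- animals. The BSO group overlapped the Cse-/- no-Cys livers. Sult2a8 fell in Cse-/- no-Trp livers with BSO relative to Cse+/- no-Trp livers (log2 -0.69, SE 0.208, edgeR adjusted p = 0.0358), with no overlap. The call was lost when any 1 of the mice av09, av11, av17, av19 and av20 was left out (adjusted p = 0.0612 to 0.116), with the difference between -0.58 and -0.82 over all such fits. Without BSO the genotype difference on no-Trp was -0.31 (SE 0.224, adjusted p = 0.49).

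The neighbouring Sult2a7 was not among the chosen genes but comes from a list made with earlier results of these data known. It differed between genotypes in the opposite direction to Sult2a8 and lies on the same strand of chromosome 7 (Sult2a8 at chr7:14410686-14446769, Sult2a7 at chr7:14465051-14494230). It was at 1.13 to 3.55 CPM in the 9 Cse+/- livers and at 13.5 to 91.1 CPM in the 11 Cse-/- livers. Sult2a7 rose in Cse-/- livers by 4.01 on the log2 scale on no-Cys (SE 0.568, edgeR adjusted p = 6.73e-05), 4.94 on no-Trp (SE 0.604, adjusted p = 0.000155) and 4.65 on no-Trp with BSO (SE 0.587, adjusted p = 8.16e-05). Among Cse-/- livers both genes had their lowest mean on no-Cys, where Sult2a7 averaged 26.3 CPM against 61.5 CPM on no-Trp (log2 -1.23, SE 0.448, edgeR adjusted p = 0.0839) and 50.3 CPM with BSO (-0.94, SE 0.422, adjusted p = 0.218). Among the Cse-/- no-Cys livers Sult2a7 was at 59 CPM in mouse av08 and at 13.5, 19 and 13.7 CPM in mice av05, av06 and av07. Without mouse av08 these differences were -2.0 (SE 0.376, edgeR adjusted p = 0.00202) and -1.71 (SE 0.359, adjusted p = 0.00762), and that between genotypes on no-Cys was 3.24 (SE 0.449, adjusted p = 4.41e-05). The difference from no-Trp also passed the threshold without mouse av16 (-1.64, SE 0.426, adjusted p = 0.0284). Sult2a7 shared no 61-base stretch of exon with another gene, and Sult2a8 shared 1.29% of its own. Of the 13 remaining cytosolic sulfotransferase genes in the list, 5 (Sult1c1, Sult2a3, Sult2a4, Sult2a5 and Sult2a6) had no counts, and 8 had at most 4 counts in a liver and were not tested.

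**Figure D3:**
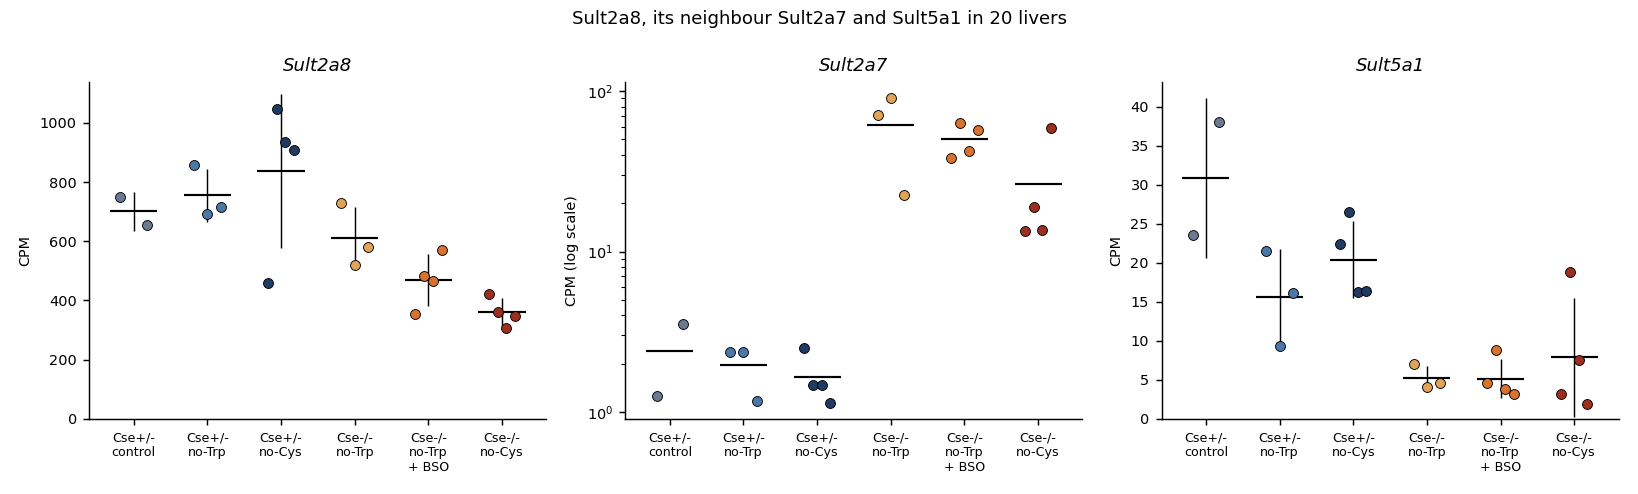
CPM of Sult2a8 and Sult5a1 (linear axes from 0) and of Sult2a7 (log axis) in each liver of the 6 groups; points are livers, horizontal lines group means and, on the linear axes, vertical lines 1 SD. Sult2a7 separates all Cse-/- livers (13.5 to 91.1 CPM) from all Cse+/- livers (1.13 to 3.55 CPM), while Sult2a8 is at 308 to 728 CPM in Cse-/- livers and 459 to 1048 CPM in Cse+/- livers.

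Sult5a1, whose substrates are poorly known, had a lower mean in the Cse-/- than in the Cse+/- livers on no-Cys and on no-Trp. It was at 9.38 to 38.1 CPM in the 9 Cse+/- livers and at 1.92 to 8.78 CPM in 10 of the 11 Cse-/- livers; the other, Cse-/- no-Cys mouse av06, was at 18.8 CPM. Sult5a1 fell in Cse-/- no-Trp livers with BSO (3.23, 3.86, 4.59 and 8.78 CPM) relative to Cse+/- no-Trp livers (9.38, 16.1 and 21.5 CPM), by 1.63 on the log2 scale (SE 0.495, edgeR adjusted p = 0.0373). Leaving out any 1 of the mice av09, av11, av12, av17 and av20 ended the call (adjusted p = 0.0917 to 0.118, difference between -1.34 and -1.99 over all such fits), as did thinning of the libraries (0.0746). Without BSO the Cse-/- no-Trp livers were at 4.05, 4.6 and 7.03 CPM, also below every Cse+/- no-Trp liver, and the difference of -1.55 (SE 0.539) missed the threshold (adjusted p = 0.131), which it passed with no filter on low counts (0.0149). BSO itself made a difference of -0.08 (SE 0.523, adjusted p = 0.974) between Cse-/- no-Trp livers. On no-Cys the genotype difference was -1.39 (SE 0.467), and -2.27 (SE 0.415) without mouse av06.

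Sult1c2 had the lowest mean per kb over the livers, although its median share of the summed sulfotransferase level (0.339%) was above that of Sult1e1 (0.137%). It was at 2.06 to 7.06 CPM and was called in no comparison without no-Cys livers (edgeR adjusted p = 0.389 to 0.877). On no-Cys it averaged 5.37 CPM in Cse+/- and 3.32 CPM in Cse-/- livers, with overlap (log2 -0.71, SE 0.26, and -0.93 without mouse av01).

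Of the PAPS synthases, Papss1 lay between 7.91 and 12.3 CPM in all 20 livers, with group means of 8.52 to 9.82 CPM. Its log2 differences in the 4 comparisons without no-Cys livers were between -0.025 and 0.16. Papss2, in contrast, fell with BSO. It was at 129, 133, 141 and 172 CPM in Cse-/- no-Trp livers with BSO and at 186, 205 and 273 CPM in those without, with no overlap (log2 -0.62, SE 0.139, edgeR adjusted p = 0.0383; DESeq2 called it too). The highest of the livers without BSO, mouse av15, widened the gap, which was 0.45 without it (log2 -0.45, adjusted p = 0.202). The call was also lost without mouse av09, av10 or av11 (adjusted p = 0.13, 0.0534 and 0.135), when the 2 groups were fitted alone (0.0903) and when libraries were thinned to the shallowest (0.056). Cse+/- no-Trp livers, at 137, 182 and 194 CPM, overlapped both.

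The Cse-/- no-Cys livers had Papss2 at 123, 125, 132 and 156 CPM, overlapping the BSO group (log2 -0.10 between them, SE 0.13) and below each Cse-/- no-Trp liver (log2 -0.72, SE 0.14). In Cse+/- mice the no-Cys diet left Papss2 at 199, 207, 207 and 228 CPM, above every Cse-/- no-Cys liver (log2 difference of genotypes -0.65, SE 0.131, between -0.60 and -0.73 with each liver left out). The genotype difference of Papss2 was thus negative on no-Cys and positive on no-Trp (0.37, SE 0.15, edgeR adjusted p = 0.189). Papss2 and Sult1b1 had a Pearson correlation of 0.83 in log2 CPM over the 20 livers.

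Slc26a1, which exchanges sulfate for other anions at the hepatocyte membrane facing the blood, was lowest in Cse+/- no-Trp livers, at 81.3, 100 and 113 CPM. Cse-/- livers were at 126, 132 and 150 CPM on no-Trp and at 136, 141, 155 and 162 CPM with BSO, above them without overlap. Slc26a1 rose in the BSO group relative to the Cse+/- no-Trp livers (log2 0.60, SE 0.157, edgeR adjusted p = 0.018), and without BSO the difference was 0.47 (SE 0.166, adjusted p = 0.136). The call was lost without mouse av09, av12 or av20 (adjusted p = 0.0512, 0.0545 and 0.1). On no-Cys, Slc26a1 was at 116 to 147 CPM in Cse+/- and at 116, 130, 134 and 204 CPM in Cse-/- livers (log2 0.14, SE 0.144, and -0.067 without mouse av08). Of its exon bases 3.48% overlap Idua on the opposite strand, and no source read here says whether the counting used strand.

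**Figure D4:**
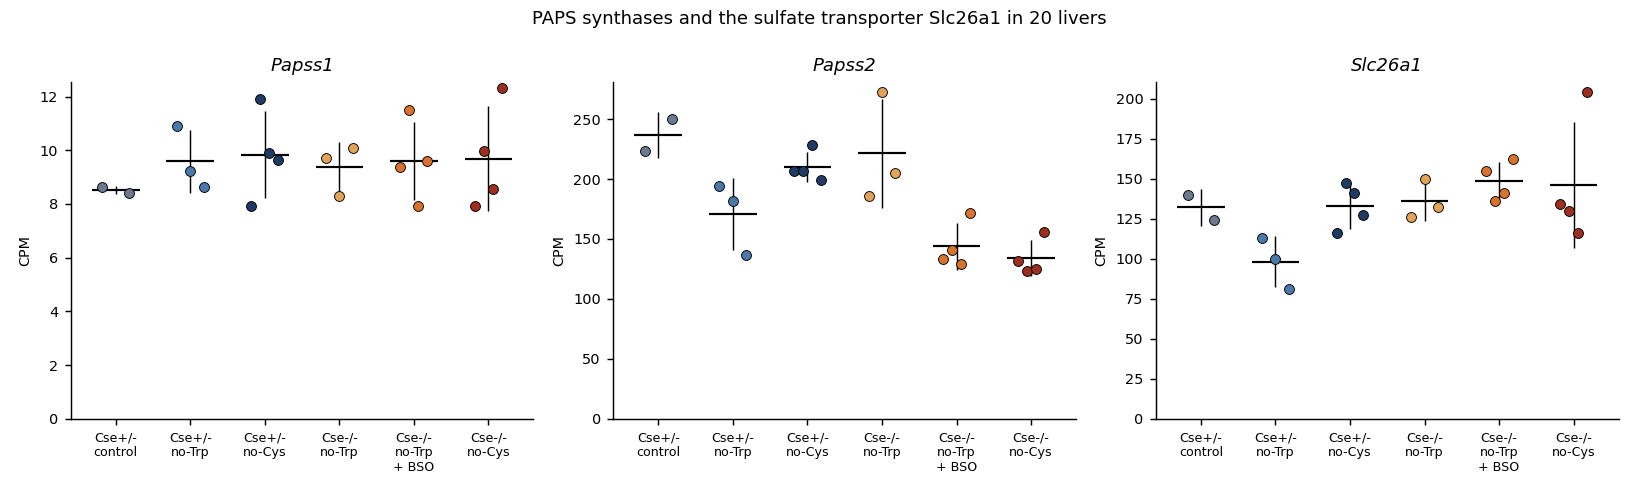
CPM of Papss1, Papss2 and Slc26a1 (linear axes from 0) in each liver of the 6 groups; points are livers, horizontal lines group means and vertical lines 1 SD. Papss1 stays between 7.91 and 12.3 CPM, whereas Papss2 is at 129 to 172 CPM with BSO and 123 to 156 CPM in Cse-/- no-Cys livers and at 186 to 273 CPM in Cse-/- no-Trp livers without BSO.

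Counted over the 10 genes, edgeR called 1 in the comparison of BSO with no BSO (Papss2, lower), where 0.793% of all 14759 genes tested were called. In Cse-/- no-Trp with BSO against Cse+/- no-Trp it called 3 (Slc26a1 higher; Sult2a8 and Sult5a1 lower), with 11.9% of all genes called. In Cse-/- against Cse+/- on no-Trp edgeR called 0, with 2.64% of all genes called; 4 had an unadjusted p under 0.05, against 18.4% of all genes, and DESeq2 called 1, Sult1e1, with 2.62% of its tested genes called. In Cse+/- no-Trp against control edgeR and DESeq2 called 0, with 0.0474% of all genes called by edgeR and 0.218% by DESeq2, and 3 had an unadjusted p under 0.05, against 9.29% of all genes. The median log2 difference of the genes in these 4 comparisons was -0.14, -0.031, 0.30 and -0.35, against -0.0048, -0.0073, 0.0024 and -0.0091 over all genes. The first 3 of these comparisons share livers with each other, as do the Cse+/- no-Trp animals with the last.

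**Figure D5:**
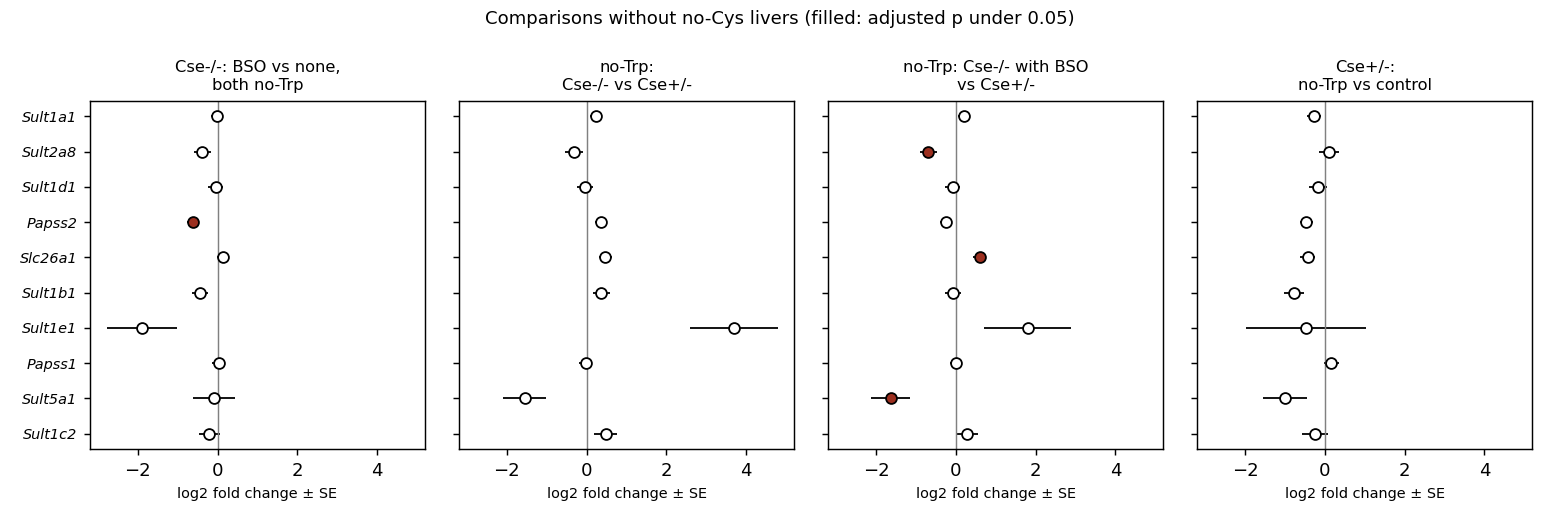
Log2 fold change ± SE from edgeR (x axis) of the 10 genes in the 4 comparisons that use no no-Cys liver; filled points have an adjusted p under 0.05. Filled points are Papss2 (-0.62) for BSO and Sult2a8 (-0.69), Slc26a1 (0.60) and Sult5a1 (-1.63) for Cse-/- with BSO against Cse+/-, and Sult1e1 has the widest errors.

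Related genes were taken from 6 lists that were chosen with earlier results of these data known, so their p-values are not independent of that choice. The background for their counts is the share of all genes called, 23.8% for genotype on no-Cys, 2.64% for genotype on no-Trp and 11.9% with BSO against Cse+/-. Of 9 genes that lead from cysteine to sulfate, Got1, the cytosolic aspartate aminotransferase, and Suox, which makes sulfate from sulfite, were higher in Cse-/- relative to Cse+/- no-Cys livers (log2 1.42, SE 0.195, edgeR adjusted p = 5.08e-05, and 0.49, SE 0.111, adjusted p = 0.0034). Got1 averaged 347 CPM in Cse+/- no-Cys livers and 927 CPM in Cse-/- no-Cys livers. In Cse+/- livers it fell on no-Cys relative to control, which averaged 1279 CPM (log2 -1.88, SE 0.225, edgeR adjusted p = 0.000338, with 2.18% of all genes called), and to no-Trp, which averaged 648 CPM (-0.90, SE 0.205, adjusted p = 0.0117, with 8.04% of all genes called), a call lost without mouse av17 (-0.77, adjusted p = 0.0521). On no-Trp Ethe1, the persulfide dioxygenase, rose in Cse-/- livers without BSO (0.62, SE 0.14, adjusted p = 0.0235) and with it (0.85, SE 0.132, adjusted p = 0.000628). The first of these calls was lost without mouse av15, av17 or av19.

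Of 7 tested genes for the transport of sulfate and PAPS and the removal of its product PAP, Slc35b2 and Slc35b3, the PAPS transporters of the Golgi, fell in Cse-/- relative to Cse+/- no-Cys livers (log2 -0.39 each, edgeR adjusted p = 0.0021 and 0.027). Bpnt1, which degrades PAP, rose (0.29, adjusted p = 0.0382), a call lost without any 1 of 7 of the 8 livers, whereas that of Slc35b3 was lost without mouse av01, av02, av05, av07 or av08.

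Among 15 tested Golgi sulfotransferases, which use PAPS on proteins, lipids and glycans, 2 fell in Cse-/- relative to Cse+/- no-Cys livers, where 23.8% of all genes were called, Tpst1 (tyrosylprotein sulfotransferase, log2 -0.45, SE 0.127, edgeR adjusted p = 0.0153, lost without mouse av02, av05 or av07) and Gal3st1, which is named after its values were seen. Chst13 rose in Cse-/- no-Trp livers with BSO relative to Cse+/- (0.67, SE 0.198, adjusted p = 0.0322), a call lost without mouse av09, av11, av12, av19 or av20. Among 12 tested sulfatases and activators, Galns, a lysosomal galactosamine sulfatase (log2 -0.73, edgeR adjusted p = 0.00538), and Arsg (-0.45, adjusted p = 0.0212, lost without mouse av02 or av07) were lower in Cse-/- than in Cse+/- no-Cys livers. Arsg was higher on no-Cys than on no-Trp in Cse+/- livers (log2 1.16, SE 0.149, edgeR adjusted p = 0.000369). In Cse-/- livers this difference was 0.58 (SE 0.148, adjusted p = 0.0185, lost without mouse av05, av14 or av16). Arsg averaged 27 CPM in Cse+/- no-Cys, 19.8 CPM in Cse-/- no-Cys and 15.2 CPM in control livers. Arsk rose in Cse-/- relative to Cse+/- no-Trp livers (0.59, adjusted p = 0.0414), a call lost without mouse av15, av17, av19 or av20.

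Among 13 tested regulators of Sult genes, the glucocorticoid receptor gene Nr3c1 fell in Cse-/- relative to Cse+/- no-Cys livers (log2 -0.38, edgeR adjusted p = 0.00868) and in Cse-/- no-Trp livers with BSO relative to Cse+/- (-0.33, adjusted p = 0.0479), the second call being lost without any 1 of 6 of the 7 livers. Nr1h4, the bile acid receptor FXR, fell with BSO relative to Cse+/- (-0.36, adjusted p = 0.0183, lost without mouse av19 or av20). Nfe2l2, which encodes NRF2, was lower in Cse-/- than in Cse+/- no-Cys livers (-0.41, adjusted p = 0.0157, lost without mouse av04 or av05), at means of 57.6 and 76.6 CPM. Cse+/- control livers averaged 48.2 CPM, below the Cse+/- no-Cys livers (log2 0.67, SE 0.148, edgeR adjusted p = 0.0201, lost without mouse av02). The study found NRF2 protein in the nucleus in livers of cysteine-deprived Cse-/- mice, which this RNA level does not measure.

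Of the tested genes outside the 10 whose log2 CPM was most like that of Sult1e1 over the 20 livers, Fam185a had a Pearson r of 0.83, Lzic of 0.82, Mfn2 of 0.81 and 1810053B23Rik of 0.80. Without mice av08 and av15 the values were 0.60, 0.68, 0.66 and 0.69. Their spans were far smaller, for example 87.3 to 215 CPM for Mfn2, and the livers share genotype and diet, so r is a description. Within the 10 genes, Sult1e1 had its most negative correlation with Sult5a1 (-0.73), and with Sult2a7 it was 0.75.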

How the data were processed

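Poly(A) RNA from liver was sequenced from an unstranded library kit. Per the labels and the study's methods, the authors aligned reads to GRCm38 with HISAT2 2.1.0 and deposited whole-number counts per gene from HTSeq 0.11.0; the annotation release and strand setting are not given in the sources used here. Table columns carry no replicate number and were placed in groups by the study's own list of animals; 1 column was not used. Symbols, coordinates and exon lengths come from GENCODE M21 (45143 of 46078 genes matched a symbol), promoters from RefSeq (GRCm38.p6).

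Counts were tested with edgeR 4.0.16 (R 4.3.3) by quasi-likelihood, with 1 mean per group, all 20 livers, TMM scaling, filterByExpr (14759 genes) and Benjamini-Hochberg adjustment over all genes tested, threshold 0.05. Fold changes are log2 and log2 CPM used a prior count of 2. The 10 genes and all lists were chosen with earlier results of these data known, so the 10 were tested only in the 4 comparisons without no-Cys livers, and no-Cys values are descriptions. All 10 genes are named. A related gene is named if it passed the threshold on no-Cys between genotypes or in those 4 comparisons at a mean of at least 1 CPM, up to 4 per list and comparison, as are the 5 genes most like Sult1e1; some results that fall under this rule are not reported here.

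Alternatives were DESeq2 1.42.0, RLE and upper-quartile scaling, other filters, a threshold of 0.01, fits of the compared groups alone, thinning to 11785740 counts and leaving out each liver. In a test on simulated counts for Cse-/- no-Trp with and without BSO (14383 genes), 91% of 2-fold and 100% of 4-fold changes were recovered among 200 changed genes, with 12 false calls. The simulation gave every gene the common dispersion of 0.027 and changed only well-counted genes. Recovery for genes as variable between livers as Sult1e1, or with as few counts, was not tested. Pairs of livers within a group differed by a chi-square of 9.6 to 64.2 per gene (25 pairs), so none were duplicates. Depth limits Sult1e1 in Cse+/- livers. Each SE was computed from the edgeR log2 fold change and its F statistic, so it takes in the spread between livers as well as counting error.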

Additional observations from a re-analysis of the deposited data

Results flagged for a closer look

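In groups of 4 livers, 7 of 84 sets of values had 1 liver far from the rest of its group, and chance flags about 1 in 20. Mouse av08 stood above the other Cse-/- no-Cys livers for Sult1e1 (29.9 CPM against 0.807 to 4.43), Sult1b1 (31.1 against 18.1 to 19.1), Sult2a7 (59 against 13.5 to 19) and Cth (13.3 against 6.37 to 7.04). Mouse av01 stood above the other Cse+/- no-Cys livers for Sult1d1 (252 CPM against 136 to 150), Cth (332 against 121 to 132) and Galns (11.6 against 7.55 to 8.17).

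The genotype difference itself differed between the no-Cys and no-Trp diets for 3 related genes in edgeR's interaction test. The difference of log2 differences was 1.54 for Got1 (adjusted p = 0.00562), -0.68 for Nfe2l2 (adjusted p = 0.0369) and -0.49 for Slc35b2 (adjusted p = 0.0316). The 10 chosen genes were not tested in this way because the no-Cys livers chose them. The lists of related genes were also made with earlier results of these data known.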

How the results depend on the processing

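The count of the 10 genes called for BSO against no BSO was 1, and 0 at an adjusted p under 0.01, when only the 2 groups were fitted and when libraries were thinned to the shallowest; leaving out each liver gave 0 to 1. For Cse-/- against Cse+/- on no-Trp it was 0, and 2 with no filter on low counts and 1 with DESeq2; leaving out each liver gave 0 to 1. For Cse-/- with BSO against Cse+/- on no-Trp it was 3, and 0 at an adjusted p under 0.01, 4 when only the 2 groups were fitted and 2 when libraries were thinned; leaving out each liver gave 0 to 3. For Cse+/- no-Trp against control it was 0 under every alternative run. The cause of these changes was not tested, except that fewer livers, fewer counts or a stricter threshold enter by construction. Of the related genes, calls also ended with no filter on low counts (Slc35b3, Bpnt1, Arsk, Nr3c1 and Nr1h4 with BSO), with the compared groups fitted alone (Arsk, Ethe1 without BSO, Chst13, Nr3c1 with BSO) and with thinning (Tpst1, Bpnt1, Ethe1 without BSO, Chst13). No called difference changed direction under the alternatives run. No paired analysis was possible because the columns of the count table carry no replicate numbers. Depth limits Sult1e1, which had 2 to 32 counts in Cse+/- livers.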
